A study of Arabidopsis thaliana with 8 samples.

Results

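Transcript levels in roots of Arabidopsis thaliana plants labelled hira were compared with those in wild-type (WT) roots. The comparison rests on 4 of the 8 Affymetrix arrays of the series, 2 titled as hira roots and 2 titled as WT roots, and on all 22746 probe sets that are not controls. The other 4 arrays hold protoplasts of the same genotypes, and the series asks how HIRA acts in dedifferentiation. They enter here through the shared estimate of the spread and in the test of whether a genotype difference is another one in protoplasts. All seedlings were grown on upright MS plates after cold treatment of the seeds, RNA was taken with a column kit and labelled with a 3′-IVT kit. The labels give the genotype of the second group only as hira, with no allele or line. Enzyme digestion is entered as treatment for all 8 samples, roots included, and the sources used here do not say whether the roots met the enzymes. Nor do they say that replicate arrays stem from different plants, so each p-value reflects the spread between arrays alone, which may be technical.

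HIRA is a histone chaperone that places the histone variant H3.3 into chromatin outside DNA replication, mainly over transcribed genes. It works in a complex with partner proteins, and ASF1 proteins hand it the histones, while ATRX is tied to a second route of H3.3 deposition. Roots extend by loosening and building cell walls, take up water and nutrients, and meet stress and microbes, and the gene groups below follow these roles.

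The deposited values are GCRMA values on the log2 scale that were centred on each probe set's median over the 8 arrays. A difference between arrays can be read from them, but not a gene's level, its signal over background, or a ranking of genes by level. A probe set whose replicate values are nearly equal may lie at the signal floor, and its difference is then a lower bound. In bulk roots, fewer cells of a type and less RNA per cell cannot be told apart. The annotation pairs no probe set with HIRA, whose own transcript could therefore not be set against the genotype label.

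The arrays of the root groups differed in their RNA controls. For the GAPDH control transcript the value at the 5′ end minus that at the 3′ end was -2.24 and -2.19 in the WT root arrays, against -0.05 and 0.12 in the hira root arrays. For the actin control it was -2.14 and -1.48 in WT roots, against -0.35 and -0.16 in hira roots. In all 6 designs of these controls both WT root arrays lay below both hira root arrays, with the smallest mean difference, 0.28, for ubiquitin. The 3′ probe set of GAPDH differed by -0.02 between hira and WT roots, the middle one by 0.96 and the 5′ one by 2.23, so the distance grew towards the 5′ end of the transcript. The poly-A spikes were lower in hira roots by a mean of -1.92 over 24 probe sets, and the hybridisation spikes were lower by a mean of -1.0 over 18. The SD of the difference between replicates over all probe sets was largest in WT roots, at 0.736, and smallest in hira protoplasts, at 0.309, with 0.615 in hira roots and 0.612 in WT protoplasts. These values move with genotype in roots, and their part in the gene differences that follow was not tested.

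**Figure D1:**
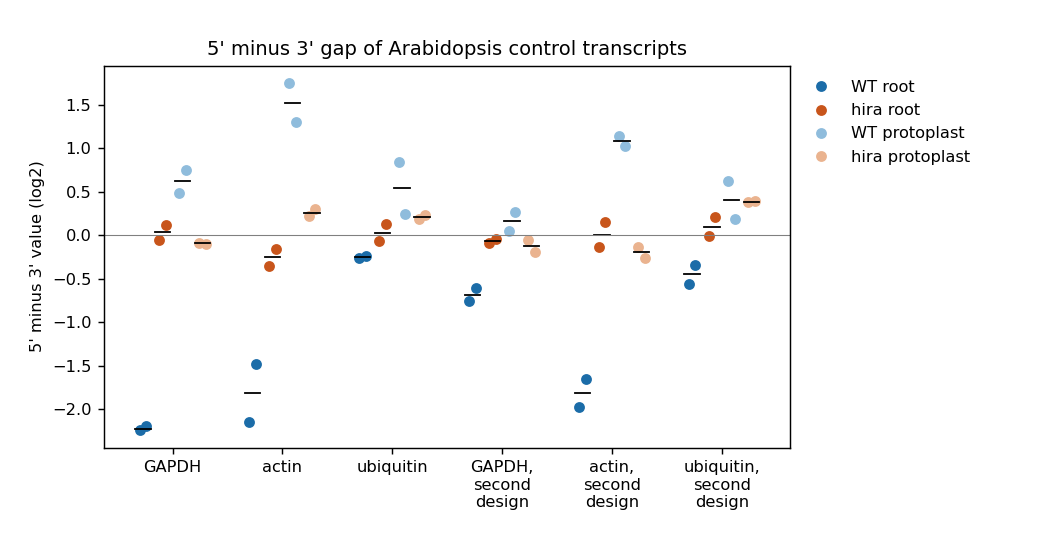
Centred log2 value of the 5′ probe set minus that of the 3′ probe set (vertical axis) for 6 control designs, with a point per array and a bar at the mean of each group of 2 arrays. The WT root arrays lie lowest in every design, at a mean of -2.22 for GAPDH, while the hira root arrays have a mean of 0.04.

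Of the 22746 probe sets, 2090 (9.19%) were called different between hira and WT roots by limma at a Benjamini-Hochberg adjusted p under 0.05, with 1117 (4.91%) higher and 973 (4.28%) lower in hira roots. Their median absolute difference was 1.28 on the log2 scale, and 1434 (6.3%) differed by at least 1. These calls use the spread pooled over all 4 groups. In simulated data with 200 changed probe sets, this fit made 4 false calls with equal spread and 338 when each group kept its own spread. In the latter setting the spread of each group was estimated per probe set from its 2 arrays and used as the true one. So rough an estimate can overstate how far groups differ, and the 338 does not measure the false calls in the real data. The groups here differ in spread, so the share of false calls may still exceed the 0.05 of the threshold. With the root arrays alone limma called 0, although 4548 probe sets had an unadjusted p under 0.05. With array weights per group, which let WT roots be noisier, it called 693 (3.05%), all of them among the 2090. Dropping WT root replicate 2 left 1082 calls, dropping hira root replicate 2 left 1149, and dropping either hira protoplast array left 495. When the control gap entered as a term, with 1 genotype effect for both tissues, 719 (34.4%) of the 2090 calls kept their direction and call. Under that term the sign turned for 8 of the 92 named calls, which were cox2, SBT3.3, Hsp70-2, PHV, TBL34, psbA, RPN12a and AT5G10850. The GAPDH and actin gaps were higher in hira than in WT roots, but lower in hira than in WT protoplasts. The term therefore overlaps with a genotype effect that differs between tissues, so a lost call or turned sign cannot be assigned to the gap. The 2 hira root arrays lay above both WT root arrays for 23.5% of probe sets and below both for 23.9%, so that 47.4% did not overlap.

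The called differences arose on either side of the comparison. Among the 1117 higher probe sets, the hira root arrays alone stood apart from all 6 other arrays for 735 (65.8%). For 247 (22.1%) it was instead the WT root arrays alone, and both groups stood apart for 111 (9.94%). Among the 973 lower probe sets the hira root arrays alone stood apart for 556 (57.1%), the WT root arrays alone for 292 (30.0%) and both for 110 (11.3%). These shares were not counted over all probe sets, and the WT root arrays had the largest replicate spread. Which group stood apart is therefore given only as a description of the calls. The genotype difference in roots was itself different from that in protoplasts for 1108 probe sets (4.87%) in limma, and 703 of these were among the 2090 root calls. That test contains the root difference and uses the same spread, so an overlap with the root calls is built in. In protoplasts 1885 probe sets (8.29%) were called between the genotypes, 383 of which were also called in roots, 271 with the same sign and 112 with the opposite sign. That is 18.3% of the root calls and 20.3% of the protoplast calls.

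Genes of chromatin come first, since HIRA acts there. Of the 4 measured histone chaperones and remodellers 1 fell in hira roots and 0 rose, with a list median of -0.04. Over all probe sets 4.28% fell and 4.91% rose. ATRX, a remodeller linked to H3.3, had centred values of 0.76 and 0.96 in WT roots and of -0.92 and -1.11 in hira roots. Its WT root arrays were the highest of the 8 and its hira root arrays the lowest, with the protoplast arrays between -0.32 and 0.14. It was 3.67-fold lower in hira roots (log2 difference -1.88, SE 0.14, adjusted p = 0.00863, limma). ASF1B, a chaperone that hands H3 and H4 to HIRA and to the replication-coupled route, had 0.29 and 0.13 in WT roots and 1.75 and 1.1 in hira roots. Its difference of 1.22 (SE 0.3) did not pass, with an adjusted p of 0.0757, although the arrays do not overlap. SGA2, the ASF1A gene, differed by 0.14 (adjusted p = 0.599), with overlapping arrays, and CHR17, an ISWI remodeller, by -0.21 (adjusted p = 0.0591), which turns to 0.78 when arrays are centred on the spikes. The 5′ minus 3′ gap of the controls moved with genotype in these same root arrays. In a fit with that gap as a term, in which roots and protoplasts share 1 genotype effect, ATRX was at -0.49 and not called. That value also draws on the ATRX difference of 0.24 in protoplasts, so it cannot show the part of the gap, which was not tested.

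Among 7 measured histone genes 2 rose (28.6%, against 4.91% over all probe sets) and 0 fell, with a median of 0.27. HIS1-3, a linker histone variant that is induced by water deficit, had -2.38 and -3.09 in WT roots and 1.13 and 2.7 in hira roots. Its WT root arrays were the lowest of the 8 and its hira root arrays the highest, with the protoplast arrays from -1.22 to 0.77. HIS1-3 was 25.1-fold higher in hira roots (4.65, SE 0.66, adjusted p = 0.0259, limma). HTR12, the centromeric histone H3, rose by 1.09 (SE 0.21, adjusted p = 0.0487), from 0.2 and 0.01 in WT roots to 1.5 and 0.89. Neither call was kept with weights per group. Of 10 cell division and DNA replication genes 1 rose, AUR1, a mitotic kinase, by 0.58 (SE 0.09, adjusted p = 0.0305), and the list median was 0.04.

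Cell wall genes moved in both directions, with more rises than falls. Of 39 probe sets for cellulose, xylan and lignin synthesis 8 rose (20.5%, against 4.91% over all probe sets) and 2 fell (5.13%, near the 4.28% over all). The list median was 0.29, against -0.004 over all probe sets. IRX15-L, needed for xylan synthesis in secondary walls, had -2.49 and -3.29 in WT roots and 0.21 and 1.16 in hira roots. Here WT roots were the low group, as the protoplast arrays spanned -0.7 to 1.25. IRX15-L was 11.9-fold higher in hira roots (3.57, SE 0.47, adjusted p = 0.0219). The TBL family, which holds enzymes that acetylate xylan and other wall polymers, gave 5 of the 8 rises. TBL25 rose by 2.2, TBL28 by 2.18, TBL34 by 1.92, TBL36 by 1.67 and TBL30 by 1.61, while TBL45 fell by 1.13. Of 24 probe sets for the 23 TBL genes measured, 16 had a difference above 0, against 10248 of all 22746 probe sets. The family was picked out after its values were seen. TBL34 had -0.95 and -0.73 in WT roots and 0.93 and 1.23 in hira roots, while in protoplasts the order was reversed, with 0.77 and 0.73 in WT and -0.97 and -1.15 in hira. TBL34 is therefore called in both tissues with opposite signs, at -1.81 in protoplasts (adjusted p = 0.012), and the fit with the gap term, which assumes a shared genotype effect, gives -0.54. CSLD2, a cellulose synthase-like gene of tip-growing root hairs, fell by 1.25 (SE 0.23, adjusted p = 0.043) and was lower in hira protoplasts too, at -1.34.

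Among 56 probe sets of wall-loosening, pectin and hemicellulose enzymes 7 rose (12.5%, against 4.91% over all probe sets) and 4 fell (7.14%, against 4.28%). The strongest rises were in SKU5-like genes, which encode secreted relatives of copper oxidases that act in directional root growth. sks15 had 0.06 and -0.09 in WT roots against 6.03 and 5.6 in hira roots, and no other array exceeded 1.44. It was 56.9-fold higher in hira roots (5.83, SE 0.51, adjusted p = 0.0112). sks16 rose by 2.97 (SE 0.48) and SKU5 itself by 1.51 (SE 0.3), so 3 of the 4 measured members rose, SKU5 at an adjusted p of 0.0492 and thus close to the threshold. The XTH enzymes, which cut and rejoin xyloglucan, split. XTH21 had -0.05 and -0.02 in WT roots and 2.72 and 2.63 in hira roots, and rose by 2.71 (SE 0.06, adjusted p = 0.000745). XTH32 rose by 2.08 (SE 0.15, adjusted p = 0.00835). XTH18 had 3.0 and 3.61 in WT roots and -0.01 and 1.12 in hira roots, and it fell by 2.75 (SE 0.45, adjusted p = 0.0334). EXGT-A3, a further XTH gene, fell by 1.48. For XTH21 and XTH32 the raised group was hira roots, with the 4 protoplast arrays near the WT root values, while for XTH18 the raised group was WT roots. EXO, an extracellular protein that promotes cell expansion under brassinosteroid control, had 2.7 and 3.97 in WT roots and -0.23 and -0.43 in hira roots and fell by 3.67 (SE 0.6, adjusted p = 0.0341). EXLA1, an expansin-like gene, fell by 2.25 (SE 0.35). All 3 expansin-like A genes measured had both hira root arrays below both WT root arrays, against 23.9% over all probe sets.

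**Figure D2:**
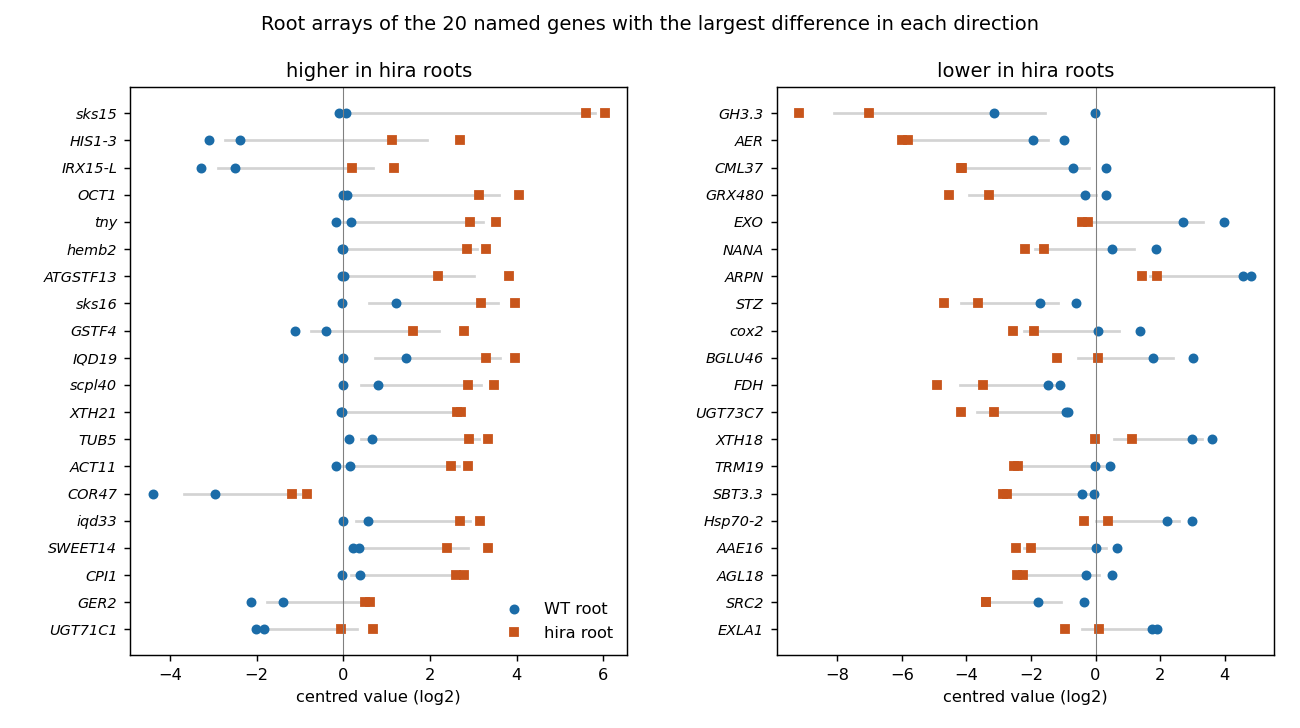
Centred log2 values (horizontal axis) of the root arrays for the 20 genes with a symbol that rose most (left) and the 20 that fell most (right), chosen among called genes whose root arrays do not overlap; circles are WT roots, squares hira roots, and the grey line joins the group means. On the left many WT root values lie near 0 with hira values at 2 or above, as for sks15 at 6.03 and 5.6, and on the right GH3.3 has the lowest values, -7.03 and -9.18.

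Cytoskeletal genes rose where they moved. Of 10 probe sets, 7 for tubulins, 2 for actins and 1 for a microtubule-associated protein, 3 rose (30.0%, against 4.91% over all probe sets) and 0 fell, with a median of 0.97. TUB5, a beta-tubulin, had 0.67 and 0.14 in WT roots and 2.9 and 3.33 in hira roots and rose by 2.71 (SE 0.45, adjusted p = 0.0355). ACT11, an actin, had 0.16 and -0.16 in WT roots and 2.87 and 2.48 in hira roots and rose by 2.67 (SE 0.29, adjusted p = 0.016). TUA6, an alpha-tubulin, rose by 1.22 (SE 0.18, adjusted p = 0.0274). In TUB5 and ACT11 the hira root arrays stood above all others, whereas weights per group kept none of the 3 calls. Tubulin and actin genes are near-identical over long stretches, and whether their probe sets tell members apart was not tested. IQD genes, whose proteins bind calmodulin and in part microtubules, moved both ways: of 15 measured, IQD19 rose by 2.9 and iqd33 by 2.63, while IQD22 fell by 2.0 and IQD16 by 1.98. This family was also picked after its values were seen.

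Genes of rapid stress signalling were lower in hira roots more often than higher. Of 21 probe sets 6 fell (28.6%, against 4.28% over all probe sets) and 2 rose (9.52%, against 4.91%), with a median of -0.52, and this list was drawn up with these results known. CML37, a calmodulin-like calcium sensor induced by wounding, had -0.7 and 0.32 in WT roots and -4.13 and -4.16 in hira roots. Its hira root arrays lay more than 3 below every other array, and it was 15.5-fold lower (-3.95, SE 0.39, adjusted p = 0.0138). GRX480, a glutaredoxin that links salicylate and jasmonate signalling, had 0.33 and -0.33 in WT roots and -3.29 and -4.54 in hira roots. It fell by 3.91 (SE 0.57, adjusted p = 0.0272). STZ, a zinc finger repressor of salt and wound responses, fell by 3.0 (SE 0.51, adjusted p = 0.0367), from -0.6 and -1.72 to -4.69 and -3.63. WRKY6, a factor of senescence and phosphate responses, fell by 1.54, CML23 by 1.33 and WRKY20 by 0.78. None of the 7 WRKY genes measured, ZAP1 (WRKY1) among them, had a difference above 0, against 10248 of all 22746 probe sets. WRKY42 was at -0.01. Against this trend, tny, an ERF-type factor that restrains growth, had 0.18 and -0.18 in WT roots and 3.51 and 2.93 in hira roots and rose by 3.22 (SE 0.31, adjusted p = 0.0134), and CML30 rose by 1.27.

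Auxin genes showed 1 fall among 19 probe sets (5.26%, near the 4.28% over all probe sets) and 0 rises. GH3.3, which conjugates auxin to amino acids and is itself auxin-induced, had -3.14 and -0.03 in WT roots and -7.03 and -9.18 in hira roots. The groups do not overlap, yet the SD between replicates was 2.197 in WT roots and 1.522 in hira roots, and the fall of 6.52 carried an SE of 1.24 (adjusted p = 0.0459). Of the 19 probe sets 10 had both hira root arrays below both WT root arrays, against 23.9% over all probe sets, while the list median was -0.03.

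Detoxification and redox genes gave 5 rises (14.3%, against 4.91% over all probe sets) and 2 falls (5.71%, near the 4.28% over all) among 35 probe sets. Both phi-class glutathione transferases measured rose. ATGSTF13 had -0.04 and 0.02 in WT roots and 2.19 and 3.83 in hira roots (3.02, SE 0.53, adjusted p = 0.0391), and GSTF4 rose by 2.94 (SE 0.47, adjusted p = 0.0318). Of 11 tau-class members GSTU28 alone was called, with a rise of 2.08. AER, an alkenal reductase that removes reactive carbonyls, had -0.97 and -1.94 in WT roots and -6.0 and -5.81 in hira roots and was 21.8-fold lower (-4.45, SE 0.54, adjusted p = 0.0193). The SD of ATGSTF13 was 1.158 in hira roots, while all 6 other arrays lay within 0.06 of 0, so the pooled spread is below that of the raised group. None of the 7 calls of this list was kept with weights per group.

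Transport genes gave 2 rises and 1 fall among 48 probe sets, or 6.25% called, near the 9.19% over all probe sets, so single genes are described here rather than the list. OCT1, an organic cation and carnitine transporter, had 0.09 and -0.01 in WT roots and 3.12 and 4.05 in hira roots and rose by 3.54 (SE 0.3, adjusted p = 0.0107). SWEET14, a sugar and gibberellin transporter, rose by 2.58 (SE 0.32, adjusted p = 0.0202), from 0.22 and 0.36 to 3.34 and 2.39. AT1G59740, listed in RefSeq as NPF4.3 of the nitrate and peptide transporter family, had 1.89 and 2.1 in WT roots and -2.81 and -4.41 in hira roots and fell by 5.6 (SE 0.66, adjusted p = 0.018). In protoplasts its order was turned, with -0.71 and -1.29 in WT and 0.71 and 1.78 in hira. That protoplast difference was not called (adjusted p = 0.102).

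Among signalling peptides and defence proteins single genes moved. RALFL24, a rapid alkalinization factor-like peptide, rose by 1.79 (SE 0.16, adjusted p = 0.0115) as the single call among 18 probe sets. The defensin PDF2.5 rose by 0.59 (SE 0.05, adjusted p = 0.00939) as the single call among 22. The shares called in these 2 lists, 5.56% and 4.55%, lie below the 9.19% over all probe sets. Among 51 UDP-glycosyltransferases 2 rose and 3 fell, or 9.8% called, close to the 9.19% over all probe sets, and UGT73C7 had the largest fall of these, 2.79. Of 29 probe sets for serine carboxypeptidase-like proteins 3 rose (10.3%, against 4.91%) and 1 fell (3.45%, against 4.28%). The proteases split: SBT3.3, a subtilase of immune priming, fell by 2.58 (SE 0.2, adjusted p = 0.00891) and NANA, a plastid aspartyl protease, by 3.06 (SE 0.52), while SBTI1.1 rose by 0.55. SBT3.3 had -0.43 and -0.04 in WT roots and -2.75 and -2.88 in hira roots, but 0.04 and 0.49 in WT protoplasts and 3.04 and 3.09 in hira protoplasts, so it was lower in hira roots and higher in hira protoplasts. BGLU46, a glucosidase of monolignol glucosides, fell by 2.95 (SE 0.58, adjusted p = 0.0497), which was close to the threshold.

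The ubiquitin list gave 5 falls (11.4%, against 4.28% over all probe sets) and 1 rise (2.27%, against 4.91%) among 44 probe sets, with a median of -0.29. Of 12 ubiquitin-specific proteases 3 fell and 7 had both hira root arrays below both WT root arrays, against 4.28% and 23.9% of all probe sets, with UBP18 at -1.69 (SE 0.16, adjusted p = 0.0126) and UBP15, which acts in leaf growth, at -1.2. UBP16 was at -0.77 and the U-box ligase PUB43 at -0.8, but with arrays centred on the spikes these become 0.22 and 0.19. RPN12a, a proteasome lid subunit, rose by 0.43. ATG8B, an autophagy protein, fell by 1.53 as the single call among 11 autophagy genes (9.09%, near the 9.19% over all probe sets). Hsp70-2, a cytosolic chaperone, had 2.2 and 2.99 in WT roots and 0.39 and -0.35 in hira roots and fell by 2.58 (SE 0.35, adjusted p = 0.0236). Its WT root arrays were the highest of all 8. It was the single call among 9 heat shock genes (11.1%, near the 9.19% over all probe sets).

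Of 84 probe sets for transcription factors of the MYB, NAC, bHLH, bZIP, homeobox and MADS families 3 fell and 0 rose, or 3.57% against 9.19% over all probe sets. PHV, a class III homeobox factor of vascular and organ patterning, had 1.27 and 1.43 in WT roots and -0.17 and -0.23 in hira roots. Its values in protoplasts were -1.44 and -1.55 in WT and 0.17 and 0.25 in hira, so the 4 hira arrays lay between the WT groups. PHV fell by 1.55 in hira roots (SE 0.08, adjusted p = 0.00429) and was higher by 1.7 in hira protoplasts (adjusted p = 0.00517). AGL18, a MADS factor that delays flowering, fell by 2.44 (SE 0.27, adjusted p = 0.0166), and BZIP28, a membrane-bound factor of endoplasmic reticulum stress, fell by 1.09 (SE 0.14, adjusted p = 0.0206).

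**Figure D3:**
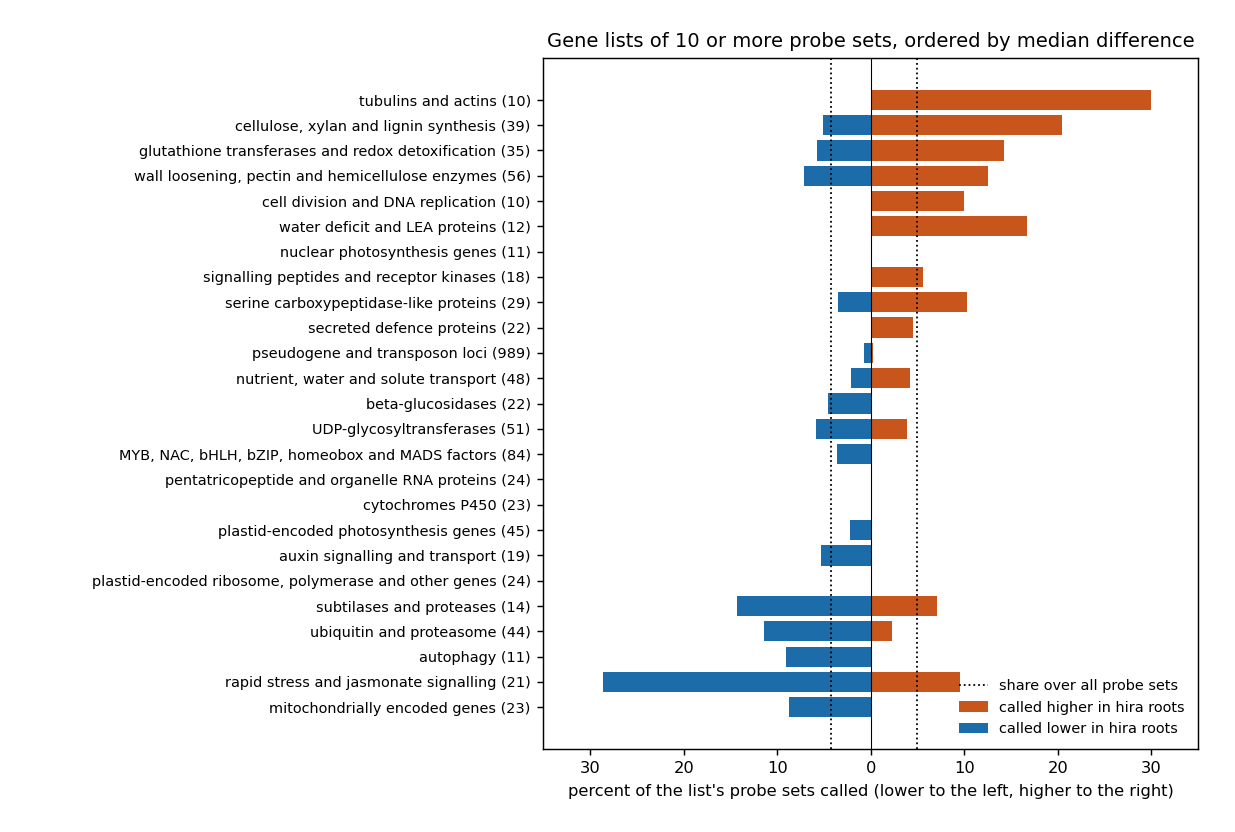
Percent of each list's probe sets called lower (left, blue) or higher (right, orange) in hira roots by limma, for lists of 10 or more probe sets ordered by median difference, with the number of probe sets in brackets; dotted lines mark the shares over all probe sets, 4.28% lower and 4.91% higher. Tubulins and actins, wall synthesis and detoxification lie at the top with rises, and rapid stress signalling and the ubiquitin list near the bottom with falls.

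Organelle-encoded transcripts had few calls. Of 92 probe sets of plastid and mitochondrial genes 3 were called, all lower in hira roots. Over all probe sets 9.19% were called and 4.28% were called lower. Yet 32 of the 92 (34.8%) had both hira root arrays below both WT root arrays, against 23.9% over all probe sets. cox2, a subunit of cytochrome oxidase, had 0.07 and 1.38 in WT roots and -1.92 and -2.55 in hira roots and fell by 2.96 (SE 0.5, adjusted p = 0.0357). psbA, the D1 protein of photosystem II, fell by 1.97 (SE 0.3, adjusted p = 0.0283). In hira protoplasts both had the highest values of the 8 arrays, 2.14 and 1.81 for cox2 and 1.24 and 1.03 for psbA. Of the 7 probe sets of nad1, a subunit of respiratory complex I, 1 was called, at -0.57, which becomes 0.42 with arrays centred on the spikes. The 25S ribosomal RNA control was lower in hira roots as well, at -0.86 and -1.67 against -0.42 and 0.52.

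Several further single genes were among the largest changes. hemb2, a second gene for the aminolevulinate dehydratase of tetrapyrrole synthesis, had -0.02 and -0.01 in WT roots and 2.86 and 3.3 in hira roots and rose by 3.09 (SE 0.2, adjusted p = 0.00669). CPI1, an isomerase of sterol synthesis, rose by 2.52, GER2, of GDP-fucose synthesis, by 2.32, and COR47, a dehydrin, by 2.67 (SE 0.52, adjusted p = 0.0478). For COR47 it was the WT root arrays that were lowest, at -2.96 and -4.4. ARPN, a plantacyanin, had 4.57 and 4.83 in WT roots and 1.92 and 1.45 in hira roots, above all protoplast arrays in both genotypes, and fell by 3.02 (SE 0.46, adjusted p = 0.0285). FDH, the mitochondrial formate dehydrogenase, fell by 2.92 (SE 0.5), TRM19 by 2.69, AAE16, an acyl-activating enzyme, by 2.57 and SRC2, a C2-domain protein of vacuolar sorting, by 2.33 (adjusted p = 0.0491).

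Loci that RefSeq lists without a symbol held the largest rises of all named probe sets, while the largest fall was that of GH3.3 (-6.52). AT1G52060 had -5.34 and -5.42 in WT roots and 1.14 and 2.19 in hira roots, with protoplast arrays between -1.47 and 0.66. It was 132-fold higher in hira roots (7.05, SE 0.43, adjusted p = 0.00615). The genes on either side of it in the RefSeq table, AT1G52050 and AT1G52070, rose by 6.17 and 5.56, the first of them from -3.86 and -5.57 to 0.8 and 2.1. Neighbouring genes can be close copies, and whether these probe sets tell them apart was not tested. Runs of adjacent genes with the same sign were sought among 795 protein-coding genes called with an absolute log2 difference of at least 1. The run around AT1G52060 was 1 of 2 runs of 3 genes. In all, 16 runs of at least 2 genes held 34 of the 795, among them TBL28 and TBL30. How many runs the call rates alone would give was not tested, so no clustering is read from these counts. AT5G54370 rose by 6.69 (SE 0.58) and AT1G50060 by 6.15 (SE 0.87), and in both it was the WT root arrays that stood below all others. The WT root values of AT1G50060 were -5.92 and -5.92, so its rise may be a lower bound. AT5G62340, in contrast, had 0.33 and -0.71 in WT roots and 5.73 and 6.98 in hira roots, above every other array, and rose by 6.55 (SE 0.73, adjusted p = 0.0166).

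Among loci that fell, AT1G43590, a pseudogene in RefSeq, stood apart in its pattern. It had 2.45 and 2.63 in WT roots and 3.16 and 2.87 in WT protoplasts, against -2.45 and -2.45 in hira roots and -2.71 and -2.72 in hira protoplasts. All 4 WT arrays were high and all 4 hira arrays low, and the near-equal hira values mean that the difference may be a lower bound. The fall in roots was 4.99 (SE 0.11, adjusted p = 0.000807), that in protoplasts was 5.73 (adjusted p = 0.000629), and the difference between them did not pass (adjusted p = 0.0716). Leaving aside the root arrays alone and the spike centring, it was called under all 17 alternatives, some of which repeat the same root fit. In the fit with the gap term it was at -5.48. AT2G15780 fell by 5.95 (SE 1.05), AT2G32190 by 5.4 (SE 0.44) and AT1G63750 by 4.77 (SE 0.75). AT2G32190 had 1.09 and 2.36 in WT roots and -3.53 and -3.82 in hira roots, below all protoplast arrays. Over the 989 probe sets of pseudogenes 2 rose and 7 fell, or 0.91% called against 9.19% over all probe sets. Besides AT1G43590, the pseudogenes AT3G17050 and AT5G40920 fell by 3.19 and 2.53, from values between 2.32 and 3.82 in WT roots to values near 0.

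**Figure D4:**
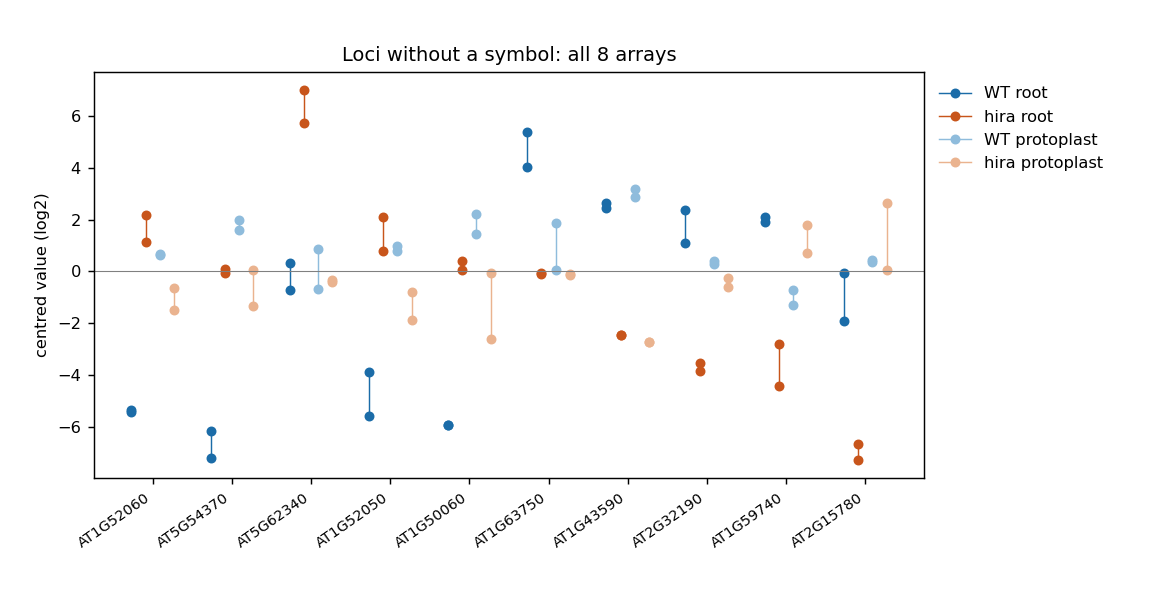
Centred log2 values (vertical axis) of the 5 loci without a symbol that rose most and the 5 that fell most in hira roots, with a point per array, joined within each group of 2. For AT1G43590 the WT arrays lie at 2.45 to 3.16 and the hira arrays at -2.45 to -2.72, in roots and protoplasts alike.

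Markers of root cell types were thinly covered and mostly missed the threshold. The root hair markers EXPA7 and EXPA18, 2 of the 7 listed, were higher in both hira root arrays, at 1.67 and 1.53 against -0.07 and -1.84 for EXPA7, but did not pass (2.55, adjusted p = 0.134, and 2.59, adjusted p = 0.158). Their summed values were 0.18 and -3.33 in WT roots and 3.97 and 3.17 in hira roots. SCN1, which restricts root hair initiation, rose by 1.2 (SE 0.15, adjusted p = 0.0193). FACT, the single suberin marker, had 4.22 and 4.24 in WT roots and 3.24 and 3.04 in hira roots (-1.09, adjusted p = 0.0521). BBM, a stem cell niche factor, had -1.56 (adjusted p = 0.0745), LHW of the stele 0.13, and of 2 green tissue markers psbA fell while RCA was at -1.27 with -3.01 and 0.62 in the hira root arrays. Of the other root cap and niche genes measured, CR4 was at -0.83 and JKD at 0.27, and neither was called. The 4 pollen or seed markers gave 0 calls. Centred values do not show which markers are at 0, and the part of cell composition in the wall and root hair values was not tested.

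The direction of a call went with the span of the gene in the RefSeq table, introns included. When 13367 single-gene probe sets were split into 5 equal groups by span, 3.07% of the group with the shortest spans rose and 2.02% fell in hira roots. In the next group, with spans of 1247 to 1849 bp, the shares were 6.51% and 1.91%. In the group with the longest spans, 3353 bp and above, they were 2.58% and 7.63%. The median span was 2042 bp for genes called higher, 2921 bp for genes called lower and 2122 bp for all. Spearman's rho between span and the root difference across genes was -0.105, and -0.26 over the 1142 called, where genes are not independent replicates. The 5′ signal of the control transcripts was higher in hira roots, whereas long genes were more often lower there, and the relation between the 2 patterns was not tested.

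**Figure D5:**
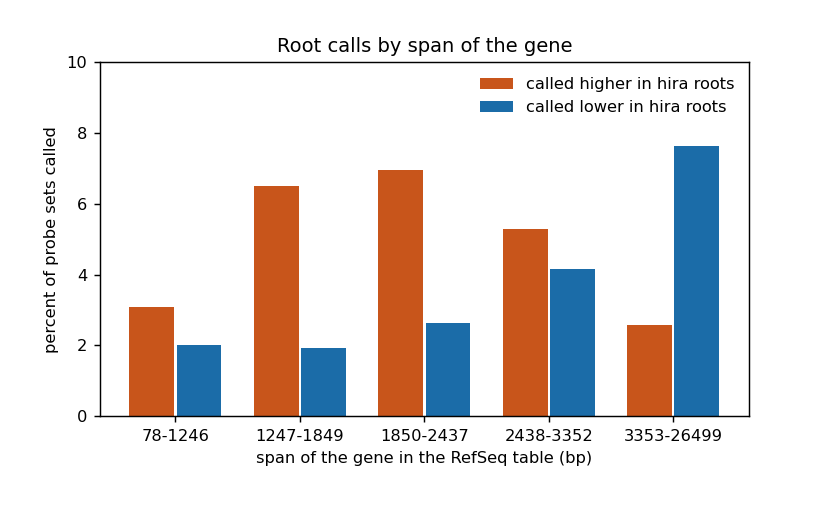
Percent of probe sets called higher (orange) or lower (blue) in hira roots (vertical axis) for 5 equal groups of genes by span in bp (horizontal axis). Calls lower in hira roots reach 7.63% for the longest spans, against 1.91% for spans of 1247 to 1849 bp.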

How the data were processed

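Each of 4 groups had 2 single-channel Affymetrix arrays, assigned by sample title. The deposited table holds values treated as log2 and made by the authors with GCRMA, per the submitters' processing notes, without a version. No source used here states the log base. A probe set spanned up to 11.23 over the arrays, more than the 11.09 open to a 16-bit signal on the natural log scale. Every probe set has a median of 0 over the 8 arrays, so the values were centred before deposit. Precision is limited by the number of arrays, and 0 value columns went unused.

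Without its 64 control probe sets the table leaves 22746. The platform annotation gave 1 gene for 13513, several for 503 and listed none for 8730. RefSeq (TAIR10.1) matched 13436 of the former by gene ID, and 1580 probe sets of 1552 genes have a symbol. No coordinates are given, since the files name no build, and no sequences were used, so the planned description of promoter motifs was not made.

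In R 4.3.3, limma 3.58.1 fitted a mean per group over the 8 arrays by lmFit, followed by eBayes, giving 4 residual and 0.742 prior degrees of freedom. The contrasts were hira minus WT roots and that difference minus the one in protoplasts. Tests were two-sided, and calls required an adjusted p (Benjamini-Hochberg, over all 22746) below 0.05. SE is that of the fit, and an exact permutation test of 2 against 2 arrays cannot go below p = 0.333. Gene lists are described by counts and medians and were not tested as sets. The fit was tested on simulated data with 200 changed probe sets. It made 4 false calls with equal spread in all groups and 338 when each group kept its own spread, estimated per probe set from its 2 arrays. Tables were made in Python 3.11.15 with pandas 2.3.3 and scipy 1.17.1.

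A named set of 106 probe sets, 92 of them called, was formed by rule, and not all of its members are described above. It holds the 20 genes with a symbol and the 5 without that rose or fell most. These were taken among called single-gene probe sets whose root arrays do not overlap. It further holds up to 4 called members per direction of each of 33 lists, and every member of lists of at most 6 genes. A gene with several probe sets is shown by that with the smallest adjusted p. Further family members named were chosen after their values were seen. The comparison, the lists and the markers were chosen with earlier results of these data known. Same-numbered replicates did not deviate together (r = 0.0485 between the root groups, -0.0962 to 0.0371 otherwise), so the numbers were not taken to pair samples. Alternatives were the root arrays alone, quantile normalization, centring on the 25% of probe sets with the smallest range or on the hybridisation spikes, an SD filter of 0.2, eBayes with trend and robust, weights per group, each array left out, a replicate block, and a term for the control gap.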

Additional observations from a re-analysis of the deposited data

Results flagged for a closer look

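Among the 92 named calls, 37 had a genotype difference in roots that differed from the one in protoplasts in limma (adjusted p of this test from 0.00198 to 0.0487), and each is given here as the difference in roots minus that in protoplasts, on the log2 scale. The test uses all 8 arrays, so it carries the control gaps of WT roots and WT protoplasts alike, and their part was not tested. It also contains the root difference by which most of the named genes were chosen, so an overlap with the root calls is built in.

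Loci without a symbol held the largest values. They were 9.29 for AT1G50060, 9.09 for AT5G54370, 8.76 for AT1G52060, 8.39 for AT1G52050 and 7.02 for AT5G62340. On the lower side they were -7.85 for AT1G59740, -4.62 for AT2G32190, -2.52 for AT5G40920 and -1.88 for AT5G10850, of which the last is a pseudogene that fell by 0.97 in roots, a direction that turns with the spikes.

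Values above 0 were found for wall, cytoskeleton and transport genes, although the transport gene AT1G59740 lay at -7.85. They were 6.62 for sks15, 5.0 for IRX15-L, 3.72 for TBL34, 3.05 for ACT11, 2.88 for XTH21 and 2.17 for XTH32, then 3.57 for OCT1 and 2.77 for SWEET14. Further higher values were 4.08 for tny, 3.33 for hemb2, 2.80 for scpl40, 2.78 for iqd33, 1.98 for RALFL24, 1.32 for SCN1, 0.71 for RPN12a, 0.61 for PDF2.5 and 0.61 for SBTI1.1.

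On the lower side stood SBT3.3 at -5.38 and the stress genes CML37 at -5.14, AER at -4.64 and Hsp70-2 at -4.09. The organelle genes were at -5.18 for cox2 and -3.49 for psbA. Further lower values were TRM19 at -3.84, PHV at -3.25, AAE16 at -2.99, ATRX at -2.12 and nad1 at -0.54. In SBT3.3, PHV, TBL34 and AT5G10850 the genotypes were called in both tissues, with opposite signs.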

How the results depend on the processing

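Beside the 2090 root calls, limma gave 0 with the root arrays alone (smallest adjusted p = 0.0712), 1332 after quantile normalization, 693 with weights per group, 495 without both hira protoplast arrays (added after seeing the data, as was leaving out both WT protoplast arrays, with 1447) and 16481 with arrays centred on the hybridisation spikes, of which 16076 were higher. That centring moves the median difference of all probe sets from -0.004 to 0.991. Leaving out 1 array at a time gave 495 to 3085, with 1082 without WT root replicate 2, 1149 without hira root replicate 2 and 495 without either hira protoplast array. Of the 2090 calls, 181 kept their direction and call under 17 alternatives, all but the root arrays alone and the spike centring, and so did 8 of the 92 named calls: OCT1, hemb2, XTH21, XTH32, UBP18, AT5G40920, AT1G43590 and AT2G32190. The 17 alternatives are not all distinct, since leaving out 1 or both protoplast arrays of a genotype gives the same root fit. For OCT1, hemb2, XTH21, XTH32 and AT5G40920 every array outside 1 root group lay within 0.41 of 0. Such near-equal arrays may lie at the signal floor and lower the pooled spread that most of these fits use. A call kept under all of them may therefore still rest on that spread. Weights per group kept 33 named calls and the gap term 19.

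The 1108 probe sets whose genotype difference itself differed between tissues became 2221 with spike centring, 610 with trend and robust and 718 with weights per group. In the hira protoplast arrays the bioB spikes had means of -4.14 and -4.09, against -0.13 and -0.2 for bioC, bioD and cre. The spike mean of that group, -1.48, and with it the 2221, therefore depends largely on bioB. Leaving out 1 array gave 142 to 2185, with 2185 without WT root replicate 1, 573 and 607 without WT protoplast replicates 1 and 2, and 168 and 142 without hira protoplast replicates 1 and 2.

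With the replicate number as a block, though nothing shows that the numbers pair samples, 1030 root calls and 302 calls of the difference were made, and 937 of the 2090 root calls were kept.

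With the control gap as a term, in which roots and protoplasts share the genotype effect, the sign turned for cox2 (0.42), SBT3.3 (0.95), Hsp70-2 (0.10), PHV (0.58), TBL34 (-0.54), SGA2 (-0.37), psbA (0.33), AT5G10850 (0.26) and RPN12a (-0.03). SBT3.3, PHV, TBL34 and AT5G10850 were called with opposite signs in the tissues. The GAPDH and actin gaps also differed between genotypes in opposite directions in the tissues, so a turned sign cannot be assigned to the gap. With spike centring it turned for UGT88A1 (0.59), CHR17 (0.78), nad1 (0.42), AT5G10850 (0.02), PUB43 (0.19) and UBP16 (0.22), all with differences smaller than the shift of the median. The cause was not tested. Centred values hide signal over background, so which differences are lower bounds cannot be read.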
